A study of Rattus norvegicus with 3 samples.

Results

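The vacuolar proton pump (V-ATPase) was followed through 10 of its subunit genes in NR8383, an established line of rat alveolar macrophages, the phagocytes of the lung surface. Members were found by name, as every probe whose gene symbol is one of 10 listed subunits, and the list itself was drawn up with earlier results of these data known. All 10 were measured, by 15 of 41103 probes, among 15925 named genes. Cells were kept for 24 h with CNT-2 or CNT-1, single-wall carbon nanotube preparations described as free of impurities, each at 0.1 mg/mL in medium with 1 mg/mL bovine serum albumin, or without nanotubes as a control. The control is called untreated in 1 label and a solvent control with albumin in another. Gene expression was read on 1-colour Agilent arrays from Cy3-labelled RNA. The labels do not describe what sets CNT-1 and CNT-2 apart.

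The V-ATPase spends ATP to pump protons into lysosomes, endosomes and phagosomes, and across the plasma membrane of osteoclasts. Its V1 sector, in the cytosol, holds the A subunits that split ATP, the B subunits, a central stalk with subunit D, and the peripheral subunits C, E, G and H. Its V0 sector, in the membrane, holds the ring of c subunits that carries protons, the large a subunit that gives them a path, and the subunits d and e. In macrophages the pump acidifies the compartments that digest engulfed particles, and the transcription factor TFEB and its relatives are known to bind a short palindrome in many lysosomal gene promoters.

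The promoter windows of the members are shown first because some hold that palindrome. RefSeq windows of 300 bases, from 250 before to 50 after the gene start (build GRCr8), were found for Atp6v0a1, Atp6v0c, Atp6v0d1, Atp6v0e1, Atp6v1a and Atp6v1d. No window was used for Atp6v0d2, Atp6v1b2, Atp6v1c1 and Atp6v1h. The motif TCACGTGA, which is its own reverse complement and contains the E-box core CACGTG, lay in 2 of these 6 windows, against 260 of 33469 promoter windows in the whole table, or 0.777%. The core CACGTG alone lay in the same 2 windows, and in 2148 of all windows, or 6.42%. None of the windows of 15 further pump genes held either motif. Whether each window, Atp6v0b's among them, covers the start used in these cells was not tested. Bases are given 5′ to 3′ on the strand of the gene, and capitals mark TCACGTGA, which lay at -53 to -46 from the start of Atp6v0d1 (chr19:50357199-50357498, minus strand) and at 24 to 31 downstream of the start of Atp6v0e1 (chr10:17007107-17007406, minus strand). The windows of Atp6v0a1, Atp6v0c, Atp6v1a and Atp6v1d held no match.
Atp6v0d1: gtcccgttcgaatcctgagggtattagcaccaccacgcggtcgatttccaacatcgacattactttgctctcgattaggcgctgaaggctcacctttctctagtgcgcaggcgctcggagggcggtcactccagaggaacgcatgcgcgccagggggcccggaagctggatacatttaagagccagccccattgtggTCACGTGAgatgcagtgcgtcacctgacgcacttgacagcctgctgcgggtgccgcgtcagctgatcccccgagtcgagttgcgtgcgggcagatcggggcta
Atp6v0e1: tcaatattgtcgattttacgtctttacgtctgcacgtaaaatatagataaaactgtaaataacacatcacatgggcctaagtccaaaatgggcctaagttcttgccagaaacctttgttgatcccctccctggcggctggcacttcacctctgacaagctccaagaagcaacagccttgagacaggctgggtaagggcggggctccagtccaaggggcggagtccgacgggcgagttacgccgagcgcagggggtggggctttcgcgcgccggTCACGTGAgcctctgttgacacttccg
A match describes these letters only and is neither a measured binding site nor a cause of any value below.

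The table held 1 column per group, with values that the authors had already centred on a baseline. The values were presumed to be log2 units, so they give differences and no level of expression, and no gene's level is set against another's. An n of 4 is stated for the design, but not what was counted. Each column was therefore treated as 1 value, no test between groups was possible, and every difference between groups is a description of these columns. The column medians were 0.06 for CNT-2, -0.04 for CNT-1 and 0.01 for control, and the standard deviation over all probes was 0.85, 0.40 and 0.16 in the same order. Where a gene had several probes, the SD over them is given as probe SD, which is technical. Over 3909 genes its median was 0.19 for the difference of CNT-2 from control, 0.08 for that of CNT-1 from control, and 0.17 for that of CNT-2 from CNT-1. In bulk RNA a change in the cells present and a change in RNA per cell cannot be told apart. The 10 spike-in probes, which report RNA added to the sample, were 0.23 ± 0.10 above control in CNT-2 (SD over probes) and -0.05 ± 0.07 from control in CNT-1, and their part in the pump values was not tested beyond the scalings given below.

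Both exposures were set against the control to ask which genes differ in macrophages that met nanotubes. In CNT-2, 9 of the 10 pump genes lay above control, by 0.62 to 2.25 log2 units, and Atp6v0a1 lay at -0.0565. The median of the members was 0.98, against 0.04 for all genes. Since the list was made with earlier results known, this count describes the members and is no independent support for a direction. Of the members, 4 were at least 1 log2 unit (2-fold) higher and 0 lower. Over all genes, 10.1% were as much higher and 6.56% as much lower, and 53.5% lay above 0. In CNT-1 the same 9 genes lay above control, by 0.08 to 1.07, with a median of 0.31 against -0.04 for all genes. Only Atp6v0d2 was past 1 log2 unit higher in CNT-1 and 0 members were as much lower, where 1.16% of all genes were as much higher, 2.15% as much lower and 42.1% above 0. At a threshold of 0.5 log2 units, 9 members were higher in CNT-2, beside 23.4% of all genes, and 2 in CNT-1 (Atp6v0d2 and Atp6v1b2), beside 4.96% of all genes.

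**Figure D1:**
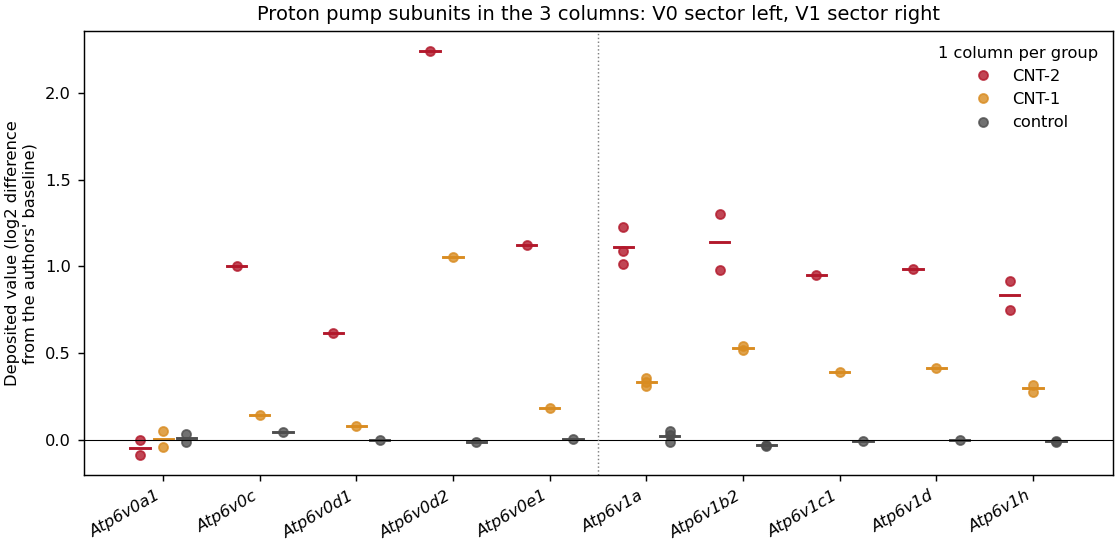
Deposited values of the 10 members (vertical axis, log2 difference from the authors' baseline), with 1 point per probe and a bar at the mean over probes, for CNT-2, CNT-1 and control from left to right in each gene. In 9 genes CNT-2 lies highest, CNT-1 between, and the control near 0, whereas the points of Atp6v0a1 lie together.

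In the V0 sector, Atp6v0d2, the isoform of subunit d that is prominent in osteoclasts and in some macrophages, was the member furthest from control. Its single probe read 2.24 in CNT-2 and 1.05 in CNT-1, against -0.013 in control, which gives differences of 2.25 and 1.07. Only 2.08% of all genes had a larger difference in CNT-2 and 0.967% in CNT-1. Its partner Atp6v0d1, the isoform of subunit d found in most tissues, read 0.61 in CNT-2 and 0.080 in CNT-1, against -0.003 in control. The isoforms thus differed from each other by 1.64 in their difference from control in CNT-2 and by 0.98 in that in CNT-1. With 1 probe each, there is no probe SD for this pair.

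The proton-carrying ring gene Atp6v0c read 1.00 in CNT-2 and 0.14 in CNT-1, against 0.042 in control. Atp6v0e1, a small membrane subunit of the V0 sector, read 1.12 in CNT-2 and 0.18 in CNT-1, against 0.005 in control. For both, the CNT-2 difference was past or just under 1 log2 unit, at 1.12 for Atp6v0e1 and 0.96 for Atp6v0c, while the CNT-1 difference was 0.18 and 0.10. Atp6v0a1, an isoform of the large a subunit best known from neurons, was the member that lay apart from the others. Its probes averaged -0.047 in CNT-2 and 0.0035 in CNT-1, against 0.0095 in control, and the differences were -0.0565 ± 0.029 and -0.006 ± 0.037 (probe SD, 2 probes). Median, 75th percentile, quantile and spike-in scaling all turned its CNT-1 difference positive, to at most 0.11, so no direction can be given for it there.

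The 5 V1 members lay close together. Atp6v1b2, the isoform of the B subunit found in most tissues, averaged 1.14 in CNT-2 and 0.53 in CNT-1, against -0.0315 in control, which gives differences of 1.17 ± 0.23 and 0.56 ± 0.02 (probe SD, 2 probes). Atp6v1a, the subunit that splits ATP, averaged 1.11 in CNT-2 and 0.33 in CNT-1, against 0.022 in control, with differences of 1.09 ± 0.08 and 0.31 ± 0.01 (probe SD, 3 probes). Every probe of Atp6v1b2 and Atp6v1a was higher in CNT-2 than in CNT-1, and higher in CNT-1 than in control. The stalk subunit Atp6v1d read 0.99 in CNT-2 and 0.42 in CNT-1, against -0.004 in control. Atp6v1c1, which helps hold V1 on V0, read 0.95 in CNT-2 and 0.39 in CNT-1, against -0.005 in control. Atp6v1h, a regulatory subunit at the base of V1, averaged 0.83 in CNT-2 and 0.30 in CNT-1, against -0.0085 in control, with a CNT-2 difference of 0.84 ± 0.12 (probe SD, 2 probes). In CNT-2 the V1 members therefore spanned only 0.84 to 1.17, and the threshold of 1 fell inside that span, between Atp6v1a at 1.09 and Atp6v1d at 0.99.

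The sectors differed in CNT-1. The V1 members lay at 0.30 to 0.56, all above the V0 members other than Atp6v0d2, which lay at -0.006 to 0.18. This gap was noticed after the values were seen, and it did not extend to the rest of the pump: of the genes outside the 10, the broadly expressed V1 subunits Atp6v1f, Atp6v1g1 and Atp6v1e1 were at 0.17, 0.24 and 0.49 in CNT-1, and the V0 subunits Atp6v0a2, Atp6v0b and Tcirg1 at 0.38, 0.41 and 0.64, so that they overlapped. In CNT-2 the sectors overlapped, with medians of 0.99 for V1 and 0.96 for V0.

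How far the nanotube kinds differ was asked by setting CNT-2 directly against CNT-1. CNT-2 lay above CNT-1 in 9 of the 10 members, by 0.53 to 1.19, with a median of 0.59 against 0.15 for all genes. Atp6v0d2 alone was past 1 log2 unit, at 1.19, and 0 members were as much lower, where 9.32% of all genes were as much higher, 4.65% as much lower and 63.3% above 0. The call of Atp6v0d2 was lost with 75th percentile centring, at 0.86, and spike-in centring, at 0.90, and its difference was -0.084 after quantile normalization. Past 0.5 log2 units were 9 members as deposited, beside 24.4% of all genes. With 75th percentile centring only Atp6v0d2, Atp6v0e1 and Atp6v0c stayed past 0.5, at 0.86, 0.62 and 0.54. The same genes alone stayed past it with spike-in centring, at 0.90, 0.66 and 0.58. Median centring left Atp6v0d1, Atp6v1h, Atp6v1c1 and Atp6v1d short of it, at 0.425 to 0.461. After quantile normalization the highest member was Atp6v0e1, at 0.26. The share of all genes past 0.5 was not counted under these scalings. As deposited, the V0 genes Atp6v0e1 and Atp6v0c followed Atp6v0d2, at 0.94 and 0.86. The V1 genes lay lower, at 0.54 for Atp6v1h, 0.56 for Atp6v1c1, 0.57 for Atp6v1d, 0.61 ± 0.21 for Atp6v1b2 and 0.78 ± 0.09 for Atp6v1a (probe SD), as did Atp6v0d1 at 0.53. Atp6v0a1 was at -0.0505. Both exposures were read against the same control column, so their control differences are not independent of each other.

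**Figure D2:**
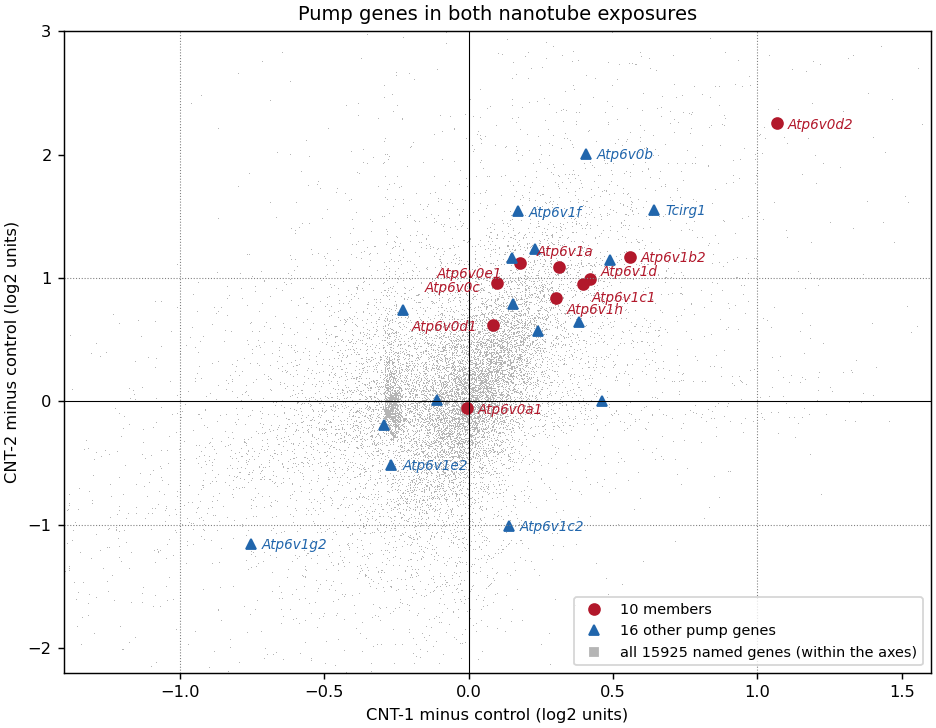
Difference from control in CNT-1 (horizontal axis) and CNT-2 (vertical axis), both in log2 units, for the 10 members (circles), the 16 other pump genes (triangles) and all named genes that fall within the axes (grey). Dotted lines mark 1 log2 unit; 9 members lie up and right of the origin with Atp6v0d2 furthest, Atp6v0a1 lies at the origin, and the dense grey strip near -0.27 on the horizontal axis is where the negative control probe lies, at -0.27 and -0.10.

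The scaling between columns bore on these values. The choice of probes could bear only on the 4 members with 2 or more probes, so the effects of scaling and probe choice cannot be ranked. Centring on the 75th percentile shifted the median of all genes in CNT-2 minus control by -0.32, and centring on the spike-in probes shifted it by -0.24. Under both, Atp6v0d2 was the only member left past 1 log2 unit in CNT-2, at 1.94 and 2.01, and the same 9 members stayed above 0. As many as 6.22% of all genes were as much higher with 75th percentile centring and 6.91% with spike-in centring, so a count of 1 in 10 is near the background there. Over all genes, 1616 were higher and 1045 lower in CNT-2 as deposited, against 990 and 1837 with 75th percentile centring and 1100 and 1618 with spike-in centring. Quantile normalization, which forces equal spread on columns whose spread differed, also left Atp6v0d2 alone past 1 in CNT-2, at 1.45, beside 5.42% of all genes as much higher, with the members' median at 0.57. For CNT-2 minus CNT-1 it brought the members' median to -0.04 with 4 of 10 above 0, where 8050 of 15925 genes were above 0. The sign of the members' median in that comparison thus rests on keeping the spread as deposited. The members' median in CNT-2 lay 0.93 above that of all genes, a distance that centring cannot alter, and 0.55 above it after quantile normalization.

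**Figure D3:**
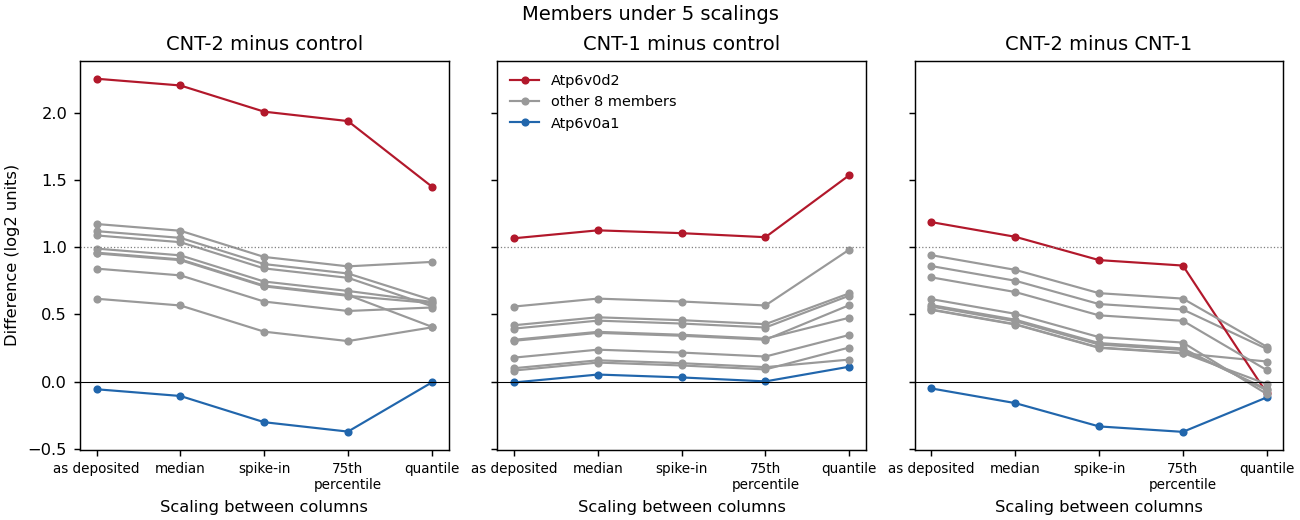
Difference of each member (vertical axis, log2 units) under 5 scalings between columns (horizontal axis), for CNT-2 minus control, CNT-1 minus control and CNT-2 minus CNT-1. Atp6v0d2 stays above 1 in both control comparisons under every scaling shown, Atp6v0a1 stays lowest, and in the comparison of nanotube kinds quantile normalization brings all members close to 0.

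Of the 16 other pump genes, 6 were at least 1 log2 unit higher and 2 lower in CNT-2, beside 10.1% and 6.56% of all genes, with a median of 0.69, and 0 were past the threshold in CNT-1, with a median of 0.16. The 6 became 3 with 75th percentile or spike-in centring and 2 after quantile normalization, where the shares of all genes were 6.22%, 6.91% and 5.42%. Atp6v0b, which codes for another type of ring subunit, was at 2.01 in CNT-2 and 0.41 in CNT-1. Tcirg1, the a3 isoform that takes the pump to the osteoclast membrane and to lysosomes, was at 1.56 in CNT-2 and 0.64 in CNT-1, against -0.0565 and -0.006 for its relative Atp6v0a1. Also past 1 in CNT-2 were the stalk subunit Atp6v1f at 1.54, the accessory protein Atp6ap2 at 1.23 ± 0.01 (probe SD, 2 probes) and the peripheral stator Atp6v1e1 at 1.15. Those not past it were Atp6ap1, an assembly-linked accessory protein, at 0.79, the a2 isoform Atp6v0a2 at 0.64 ± 0.19 (probe SD, 2 probes) and the stator Atp6v1g1 at 0.57. These 8 broadly expressed genes all lay above control in both exposures, with medians of 1.19 in CNT-2 and 0.31 in CNT-1. Over all genes, 53.5% lay above control in CNT-2 and 42.1% in CNT-1. Tcirg1 is both prominent in osteoclasts and found on lysosomes elsewhere, and without it the medians of the other 7 were 1.15 and 0.24. The grouping into broad and restricted forms rests on what is known from mouse and human, and was made after the values were seen, as was the choice to leave Tcirg1 out.

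The other 8, forms restricted to tissues such as kidney, brain or testis together with Atp6ap1l, had medians of -0.10 in CNT-2 and -0.17 in CNT-1. Above control were 4 and 3 of the 8, beside 53.5% and 42.1% of all genes, so these counts are near the background. The kidney forms diverged in CNT-2, with Atp6v1b1 at 1.16, Atp6v0a4 at 0.74, Atp6v1g3 at 0.002 and Atp6v1c2, a form of kidney and lung, at -1.01. The testis form Atp6v1e2 was at -0.51, the brain form Atp6v0e2 at 0.008 and Atp6ap1l at -0.20. For Atp6v1g2, a brain form, the 2 probes disagreed, at -0.28 and -2.03 in CNT-2, so the mean of -1.16 describes neither. In the control column Atp6v1g3 lay within 0.02 of the negative control probe, and Atp6v1b1, Atp6v1c2 and both probes of Atp6v1g2 lay more than 0.1 from 0. All 15 probes of the members lay within 0.1 of 0 there, as did every probe of 10796 of the 15925 genes.

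Of 9 genes that assemble or regulate the pump, 0 were past 1 log2 unit higher in CNT-2 and 1 was lower, beside 10.1% and 6.56% of all genes, with a median of -0.15 against 0.04 for all genes. With so few genes, these counts are near the background. The lower one was Tmem9, a lysosomal membrane protein reported to promote pump assembly, at -1.10, followed by Rogdi, a subunit of the complex that reassembles V1 with V0, at -0.96 and its partner Dmxl1 at -0.61. Wdr7, a further partner, was at 0.89, Tmem199 and Ccdc115, which assemble V0 in the endoplasmic reticulum, at 0.82 and 0.42 ± 0.04 (probe SD, 3 probes). The list's median in CNT-2 turned to 0.04 under quantile normalization, with 0 lower, and 2 were lower under the other scalings. Over all genes, 3.42% were as much lower after quantile normalization and 7.16% to 11.5% under the other scalings. In CNT-1 the list's median was 0.019, with 0 past the threshold, beside 1.16% of all genes as much higher and 2.15% as much lower.

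Of 14 ion channels and exchangers of the same membranes, 9 were at least 1 log2 unit higher in CNT-2 and 0 lower, beside 10.1% and 6.56% of all genes, and the median was 1.22. The count was 6 with 75th percentile centring, 7 with spike-in centring and 4 after quantile normalization, where 6.22%, 6.91% and 5.42% of all genes were as much higher. The calcium channels Mcoln3, Mcoln2 and Mcoln1 were at 2.77, 1.97 and 1.38. Among the chloride-proton exchangers, which balance the charge that the pump moves, Clcn4 was at 2.22 ± 0.20 (probe SD, 3 probes), Clcn7 at 1.88, Clcn5 at 1.27 and Clcn6 at 1.11. The cation channel Tpcn2 was at 1.65 and the sodium-proton exchanger Slc9a7 at 1.17. Not past the threshold were Clcn3 at 0.88, Ostm1, the partner of Clcn7, at 0.78 ± 0.06 (probe SD, 2 probes), the lysosomal channel Tmem175 at 0.77 and Tpcn1 at 0.53. Slc9a9, another sodium-proton exchanger, was the one below control, at -0.28 ± 0.50 in CNT-2 and -0.66 ± 0.70 in CNT-1 (probe SD, 3 probes), and 2 of its probes lay within 0.02 of the negative control probe in the control column. In CNT-1 only Clcn4 was past the threshold, at 1.02 ± 0.11, and the median was 0.30.

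The pump is also part of the platform on lysosomes that reports amino acids to the kinase mTORC1. Of 18 genes of that platform and of the TFEB family it controls, 4 were at least 1 log2 unit higher in CNT-2 and 0 lower, beside 10.1% and 6.56% of all genes, with a median of 0.53. The count was 3 with median centring and 2 under each of the other scalings, where 5.42% to 6.91% of all genes were as much higher. The 4 were Fnip2, the partner of folliculin, at 1.96, the GTPases Rragd and Rragc at 1.72 and 1.23, and the scaffold subunit Lamtor4 at 1.00. In CNT-1 these 4 genes were at 0.94, 0.85, 0.66 and 0.25. Tfeb itself was at 0.88 ± 0.03 in CNT-2 and 0.18 ± 0.09 in CNT-1 (probe SD, 2 probes), and its relatives Tfe3, Mitf and Tfec were at 0.33, -0.18 and -0.51 in CNT-2 and at -0.27, 0.16 and -0.046 in CNT-1. Among the genes not past the threshold, Lamtor2 was at -0.63 and Mtor at -0.45.

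Because Atp6v0d2 and Tcirg1 are the osteoclast forms of their subunits, a list of 10 measured genes known from osteoclasts, which holds Tcirg1 itself, was read beside them. Listed but not measured were Ocstamp, Nfatc1, Oscar and Tnfrsf11a. Of the 10 measured genes, 6 were at least 1 log2 unit higher in CNT-2 and 0 lower, beside 10.1% and 6.56% of all genes, with a median of 1.57. Without Tcirg1, left out after the values were seen, 5 of 9 were, with a median of 1.59. The count was 4 after quantile normalization and 6 under the other scalings. The 6 were the collagen-degrading cathepsin Ctsk at 2.10, the cell fusion protein Dcstamp at 2.08, the metalloproteinase Mmp9 at 2.00, Clcn7, the acid phosphatase Acp5 at 1.59 and Tcirg1. The integrin subunit Itgb3 was at -0.56, the carbonic anhydrase Car2 at -0.45 and the calcitonin receptor Calcr at -0.15 ± 0.37 (probe SD, 2 probes). In CNT-1 0 of the 10 were past the threshold and the median was 0.14, with Dcstamp at 0.68, Ctsk at -0.19 and Mmp9 at -0.62. Tcirg1, Clcn7 and Ostm1 also stand in the lists above.

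The mitochondrial F-type ATP synthase is a rotary enzyme of related build that makes ATP. None of its 17 measured genes was past 1 log2 unit in either exposure. Over all genes, 10.1% were as much higher and 6.56% as much lower in CNT-2. In CNT-1 the shares were 1.16% and 2.15%, so a count of 0 there is near the background. In CNT-2 the 17 genes lay at -0.42 to 0.52 with a median of -0.11, and 6 of 17 were above control, beside 53.5% of all genes. In CNT-1 they lay at -0.09 to 0.12 with a median of -0.013. The CNT-1 median of this list was above 0 once columns were centred on their median or the spike-in probes, or quantile normalized. The highest was Atp5if1, the inhibitor protein of the enzyme, at 0.52 in CNT-2.

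**Figure D4:**
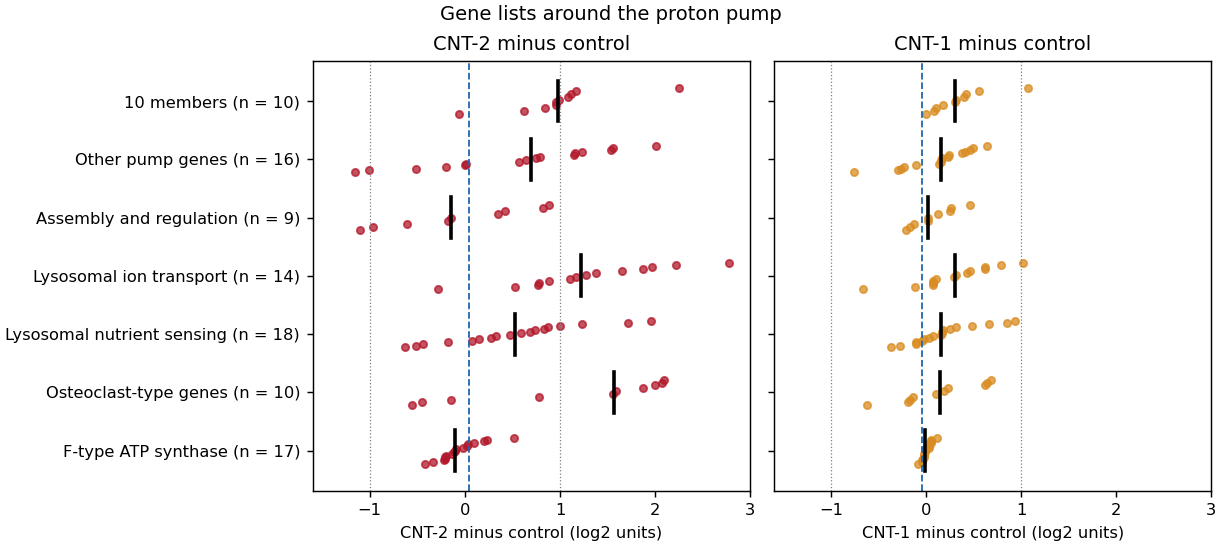
Difference from control (horizontal axis, log2 units) for each gene of 7 lists, in CNT-2 (left) and CNT-1 (right), with 1 point per gene, a black bar at the list's median, a dashed line at the median of all genes and dotted lines at 1 log2 unit either way. In CNT-2 the medians of the members and of lysosomal ion transport and osteoclast-type genes lie at 0.98 to 1.57, and that of the F-type ATP synthase at -0.11.

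The table holds no levels, so the macrophage label could not be checked by the abundance of markers. Of 14 alveolar macrophage markers, 2 were at least 1 log2 unit higher in CNT-2 (Fabp4 at 3.96 and Cd14 at 3.37) and 2 lower (Mrc1 at -2.24 and Csf1r at -1.25 ± 0.60, probe SD of 2 probes), with a median of 0.41. Over all genes, 10.1% were as much higher and 6.56% as much lower. Of 22 markers of epithelium, fibroblasts, endothelium, lymphocytes and neutrophils, 2 were as much higher, the fibroblast marker Dcn at 2.56 and the epithelial Krt18 at 1.34 ± 0.52. The endothelial Vwf at -1.72 ± 1.66 (probe SD, 2 probes each) and the lymphocyte marker Nkg7 at -1.67 were as much lower, and the median was -0.004. With so few genes, the counts of both lists are near the background. In CNT-1 the macrophage marker Car4 was at -1.08 and the epithelial Epcam at 1.61, the only ones of these lists past the threshold, and the medians were -0.016 and -0.19. Over all genes in CNT-1, 1.16% were as much higher and 2.15% as much lower. The control column itself lay far from 0 for Car4, at 1.01, where CNT-1 read -0.078. It averaged 0.52 for Csf1r and 0.42 for Vwf. In CNT-2 minus CNT-1, 3 of the 14 macrophage markers were at least 1 log2 unit higher and 1 lower. These were Cd14 at 4.255, Fabp4 at 4.05, Car4 at 1.89 and Mrc1 at -1.77. Of the 22 others, 3 were as much higher: Dcn at 1.58, Krt18 at 1.52 ± 0.48 and S100a8 at 1.11 ± 0.90 (probe SD). Epcam at -1.92 and Vwf at -1.22 ± 2.82 were as much lower. Over all genes, 9.32% were as much higher and 4.65% as much lower. For S100a8, 2 of 3 probes lay within 0.02 of the negative control probe in the control column. The part of these markers in the pump values was not tested.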

How the data were processed

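The submitters' processing notes name Agilent Feature Extraction 10.7.3.1. The deposited values, 1 column per group, are presumed log2 differences that the authors had centred per probe before deposit. The scale was taken from their range (-5.71 to 8.82) and signs, and with natural logs each fold would be larger. Not given in the sources used here are the normalization, the baseline and how many arrays stand behind a column. Probes were named through the platform annotation. A single gene symbol was listed for 20932, none for 20171, and several for 0. Symbols were updated through RefSeq accessions (17424 probes) or synonyms (396) of assembly GRCr8. Differences between columns were taken per probe and averaged per gene with Python 3.11.15 and pandas 2.3.3, and tested on simulated data. The number of arrays limits the precision. Members and gene lists were chosen with earlier results of these data known. Named genes were the 10 members, all other pump genes, list genes past 1 log2 unit, some list genes short of it chosen after their values were seen, and the 5 genes nearest to Atp6v0d2 and to the members' median. Alternatives were 4 scalings, other summaries over probes, platform symbols and a threshold of 0.5.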

Additional observations from a re-analysis of the deposited data

How the results depend on the processing

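No paired analysis was possible because each group had 1 column. With 75th percentile centring the members' median was 0.66 in CNT-2 minus control and 0.27 in CNT-2 minus CNT-1, with 1 and 0 members past 1 log2 unit. With spike-in centring these were 0.73 and 0.31, with 1 and 0. After quantile normalization the medians were 0.57 and -0.036, with 1 and 0 past the threshold, 4 members above 0 in CNT-2 minus CNT-1, Atp6v0d2 reversed there at -0.084, and a CNT-1 median of 0.52. Under these scalings, in the same order, 6.22%, 6.91% and 5.42% of all genes were as much higher in CNT-2 minus control. In CNT-2 minus CNT-1 the shares were 5.26%, 5.63% and 2.74%. After quantile normalization 8050 of 15925 genes lay above 0 there, so these counts of members are near the background. Quantile normalization makes the spread of the columns equal by construction, and the cause of the other shifts was not tested. Among the 4 members with 2 or more probes, 3 lay above 0 in each comparison, and 2 were past the threshold in CNT-2 minus control and 0 in both others. Of all 3909 genes with 2 or more probes, 8.75% were as much higher in CNT-2 minus control. The shares were 0.588% in CNT-1 minus control and 6.47% in CNT-2 minus CNT-1. With a threshold of 0.5 on the deposited values, 9 members were higher in CNT-2 minus control, 2 in CNT-1 minus control and 9 in CNT-2 minus CNT-1. The shares of all genes were 23.4%, 4.96% and 24.4% in the same order. Without Atp6v0d2, an alternative chosen after seeing the data, 0 were past the threshold in CNT-1 minus control and in CNT-2 minus CNT-1. Median centring, the median over probes, the probe with the largest absolute difference and platform symbols moved none of these summaries beyond the median probe SD or 1.5 times a count. The choice of probe could change only the 4 members with 2 or more probes. The median over probes could change only Atp6v1a, which had 3 probes, so little could move under these settings. Under each of the 3 centrings 29 of 30 member differences kept their sign, and 24 of 30 did after quantile normalization. With 1 column per group, nothing here measures the spread between cultures.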

Other observations

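Among 3905 named genes with 2 or more probes, those closest to Atp6v0d2 over the CNT-1 and CNT-2 differences from control were read as a description over 2 values that share 1 control column. The nearest was Clcn4, a chloride-proton exchanger of endosomes, at 2.22 ± 0.20 in CNT-2 and 1.02 ± 0.11 in CNT-1 (probe SD, 3 probes), 0.057 log2 units away. It was followed by Pcnx1 at 2.12 ± 0.04 in CNT-2 and 1.18 ± 0.01 in CNT-1, Tecpr1, which links autophagosomes to lysosomes, at 2.21 ± 0.04 and 0.77 ± 0.08, Usp18, which removes the modifier ISG15 from proteins, at 2.33 ± 0.28 and 0.76 ± 0.18, and the glutathione transferase Gsta2 at 1.91 ± 0.12 and 0.83 ± 0.14 (probe SD, 2 probes each, CNT-2 given first).

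Closest to the median of the members were Lrp12 at 0.95 ± 0.04 in CNT-2 and 0.33 ± 0.05 in CNT-1 (probe SD, 2 probes), Vapa, a membrane contact protein of the endoplasmic reticulum, at 1.02 ± 0.09 and 0.30 ± 0.03 (3 probes), Susd2 at 1.01 ± 0.50 and 0.27 ± 0.83 (2 probes), Rasgef1c at 0.98 ± 1.44 and 0.26 ± 0.50 (2 probes), and Rab11a, a GTPase of recycling endosomes, at 0.92 ± 0.13 and 0.29 ± 0.03 (3 probes). For Susd2 and Rasgef1c the probe SD was as large as, or larger than, at least 1 of the differences, so their place in this order is uncertain.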
